A study of Mus musculus with 7 samples.

Results

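Sox8, Sox9 and Sox10 make up group E of the Sox transcription factors and are 3 of the 31053 genes counted in 7 single-cell RNA libraries of mouse brain. They were taken by gene symbol, and the family was selected on its measured counts in oligodendrocyte precursors of these data, where Sox9 was near 0 in adults. The age contrast in precursors is therefore described here without a test. The 3 adult libraries were P60 cortex, P60 grey matter and P60 white matter, and the 4 early postnatal libraries were P2 cortex, P7 cortex, P7 SVZ (the subventricular zone, a germinal layer beside the ventricle) and P15 cortex. P7 SVZ came from C57BL/6 mice and the other 6 libraries from CD1 mice, and no treatment is given for any of them. The cortex pieces held the cortical grey matter, the white matter and the germinal zone above the ventricle. P60 grey matter was the tissue above the white matter, and P60 white matter held the corpus callosum with the germinal zone. The labels do not say that libraries are separate animals, so p-values measure the spread between these libraries. That spread may be technical and also holds differences of age, region and strain within the early group and of region within the adult group.

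SoxE proteins bind DNA through an HMG box, a domain that bends the double helix. In the brain, Sox9 is known for its part in neural stem cells, in the switch from making neurons to making glia, and in astrocytes. Sox10 is known as a lineage factor of oligodendrocytes, where it acts with Olig2 and Myrf on myelin genes. Sox8 is known to overlap in function with both. In mouse spinal cord, Sox9 and Sox10 together keep up Pdgfra, the receptor through which precursors answer platelet-derived growth factor.

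The genes lie apart on mm10 (GENCODE M21): Sox9 (ENSMUSG00000000567) at chr11:112782224-112787760 on the plus strand, Sox10 (ENSMUSG00000033006) at chr15:79154908-79165240 on the minus strand and Sox8 (ENSMUSG00000024176) at chr17:25565892-25570686 on the minus strand. The coding strand of the first 96 bases from the start of the conserved HMG box motif is shown because it is the part that makes these genes a family and the part where reads could be mistaken for another member. It lies in 1 exon of each gene, at chr17:25570130-25570225 in Sox8, chr11:112782900-112782995 in Sox9 and chr15:79163309-79163404 in Sox10. Capitals mark the 80 bases (83.3%) that are the same in all 3 genes.
Sox8: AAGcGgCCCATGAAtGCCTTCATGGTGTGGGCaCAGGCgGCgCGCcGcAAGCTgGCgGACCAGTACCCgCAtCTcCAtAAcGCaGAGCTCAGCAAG
Sox9: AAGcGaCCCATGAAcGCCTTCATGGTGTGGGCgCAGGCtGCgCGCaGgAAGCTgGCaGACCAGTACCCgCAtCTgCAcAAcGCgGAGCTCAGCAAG
Sox10: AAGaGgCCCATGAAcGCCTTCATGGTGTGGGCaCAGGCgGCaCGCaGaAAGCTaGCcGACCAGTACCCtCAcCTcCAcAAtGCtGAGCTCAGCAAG
Pairs of genes shared 86 (Sox8 and Sox9), 84 (Sox8 and Sox10) and 83 (Sox9 and Sox10) of these 96 bases. Over the whole coding sequence the aligned identity was 59.9%, 59.0% and 62.8% in the same order of pairs. The libraries read the 3′ end of transcripts, and over the last 600 bases of the transcripts the longest run shared by any pair was 16 bases. An antisense gene, 2810468N07Rik (chr17:25570358-25575043, plus strand), overlaps the 5′ end of Sox8 and was not used here. Whether reads were counted by strand is not given in the sources used here.

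Libraries held 10074763 to 45668007 UMIs (unique molecular identifiers, each standing for 1 captured transcript), and 20697 of 25747 barcodes were kept as cells. No pair of libraries shared more than 28 barcodes, 0.781% of the smaller library. Cells were clustered without the SoxE genes and named from marker lists. Names end in "-like" because they rest on RNA alone. The precursor class, called OPC-like (oligodendrocyte precursor cell), was led by C1ql1, Pdgfra, Lhfpl3 and Cspg4 and held 107, 121 and 90 cells in P60 cortex, P60 grey matter and P60 white matter, against 159, 310, 548 and 478 cells in P2 cortex, P7 cortex, P7 SVZ and P15 cortex. Different clusters held most of the class in P7 SVZ (85.6% in a cluster of its own) and in the other libraries (82.6% to 99.2% in 1 shared cluster). The Y-linked genes Eif2s3y and Ddx3y were at 0 in the 3 adult OPC-like sums and above 0 in the 4 early postnatal ones, so age and the sex of the animals cannot be told apart.

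Sox9 was near 0 in adult OPC-like cells and clearly counted in early postnatal ones. Levels are CPM, the UMIs of a gene for each 1000000 UMIs of the class sum. Sox9 stood at 2.47, 1.66 and 0 CPM in P60 cortex, P60 grey matter and P60 white matter, which is 1, 1 and 0 UMIs, against 136, 93.5, 99.1 and 47.0 CPM in P2 cortex, P7 cortex, P7 SVZ and P15 cortex, from 141, 228, 450 and 141 UMIs. The groups did not overlap, the adult values lay at the level of microglia-like cells, and P15 was the lowest early library. Values did not overlap for 22.6% of the 9773 genes tested in this contrast, and 6.48% of them passed adjusted p 0.05 (edgeR, 2.95% higher and 3.53% lower in adult sums). A count of 0 in P60 white matter allows up to 8.0 CPM (3 counts), so a level below that was not detectable at this depth. Pooled over libraries, the adult to early postnatal ratio of Sox9 was 0.0166, with a 95% exact interval of 0.0020 to 0.06 that covers counting error only.

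The share of cells with a Sox9 UMI gave the same order. After each cell was thinned to 2000 UMIs, 0 of 91, 1 of 104 and 0 of 79 OPC-like cells in P60 cortex, P60 grey matter and P60 white matter held a Sox9 UMI, against 39 of 155, 58 of 304, 95 of 539 and 48 of 470 in P2 cortex, P7 cortex, P7 SVZ and P15 cortex. These are shares of 0%, 0.962% and 0% in the adult libraries and 25.2%, 19.1%, 17.6% and 10.2% in the early ones. Exact 95% limits reached up to 3.97%, 5.24% and 4.56% in the adult libraries and down to 18.5%, 14.8%, 14.5% and 7.63% in the early ones. Without thinning the shares were 0.935%, 0.826% and 0% in adult cells and 47.8%, 36.5%, 39.1% and 18.4% in early ones. Thinning left out 16, 17 and 11 adult cells and 4, 6, 9 and 8 early cells. Microglia-like cells, which should lack Sox9, gave thinned shares of 0%, 0.181% and 0% in P60 cortex, P60 grey matter and P60 white matter and at most 1.52% in the early libraries. Other classes outside the neural lineage held more in P7 cortex, where 11 of 84 endothelial-like cells (13.1%) and 5 of 67 border-associated macrophage-like cells (7.46%) had a Sox9 UMI, beside 19.1% of OPC-like cells. Median depths there were 10084, 6448.5 and 7606.5 UMIs in the same order of classes. In the adult libraries median depths were 2478, 7161 and 4152 UMIs in microglia-like cells and 3686, 5348 and 4114.5 UMIs in OPC-like cells.

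In cortex, Sox9 in OPC-like cells was lower at each later age. P7 cortex stood at 0.686 times P2 cortex (95% exact interval 0.554 to 0.853), P15 cortex at 0.503 times P7 cortex (0.405 to 0.623), and P60 cortex at 0.0525 times P15 cortex (0.00132 to 0.297). At the same age, P7 SVZ and P7 cortex were close, with a ratio of 1.06 (0.902 to 1.25). Each ratio compares 2 libraries and has no replicate check. Astrocyte markers summed to 1877, 2324 and 1304 CPM in the 3 adult OPC-like sums and to 550.2, 970.3, 619 and 1209 CPM in the early ones. That list, of which 2, 2 and 3 of 14 genes were at 0 in adult sums and 3, 0, 1 and 0 in early ones, was higher in every adult sum. The 9 neuroblast markers summed to 29.6, 29.8 and 85.4 CPM in adult and 373, 219, 283 and 75.1 CPM in early sums. Of them 8, 8 and 2 were at 0 in adult sums and 1, 0, 0 and 2 in early ones. P60 white matter lay above P15 cortex here. The 12 neural precursor markers summed to 415, 369 and 325 CPM in adult and 426, 378, 334 and 320 CPM in early sums. The part of these lists in the result was not tested.

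Sox10 was present in the precursors of every library and was higher in adult ones. It stood at 454, 419 and 443 CPM in P60 cortex, P60 grey matter and P60 white matter, against 264, 199.8, 250.5 and 356 CPM in P2 cortex, P7 cortex, P7 SVZ and P15 cortex. The groups did not overlap, as for 22.6% of all genes tested, the 3 adult values lay close together, and P7 cortex was the lowest. The means were 439 ± 18.1 CPM in adult and 268 ± 65.1 CPM in early postnatal sums (SD, n = 3 and 4). Thinned shares of cells with a Sox10 UMI averaged 55.7% ± 2.19 in adult and 41.2% ± 9.30 in early libraries. Without thinning the shares were 77.6%, 76.0% and 75.6% in adult and 81.8%, 76.8%, 81.4% and 86.2% in early libraries, so the direction of the share reversed with depth.

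Sox8 did not follow the age groups. It stood at 333, 101 and 365 CPM in P60 cortex, P60 grey matter and P60 white matter, against 139, 107, 161 and 357 CPM in P2 cortex, P7 cortex, P7 SVZ and P15 cortex. The groups overlapped: P60 grey matter was lower than every early library, and P15 cortex was level with the other adult libraries. The means were 267 ± 144 CPM in adult and 191 ± 113 CPM in early postnatal sums, a difference within the spread. P15 cortex stood at 3.34 times P7 cortex (95% exact interval 2.91 to 3.83) for Sox8 and at 1.78 times (1.60 to 1.99) for Sox10. P7 SVZ stood at 1.51 times P7 cortex (1.31 to 1.74) for Sox8 and at 1.25 times (1.13 to 1.4) for Sox10, where region, strain and library cannot be told apart.

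**Figure D1:**
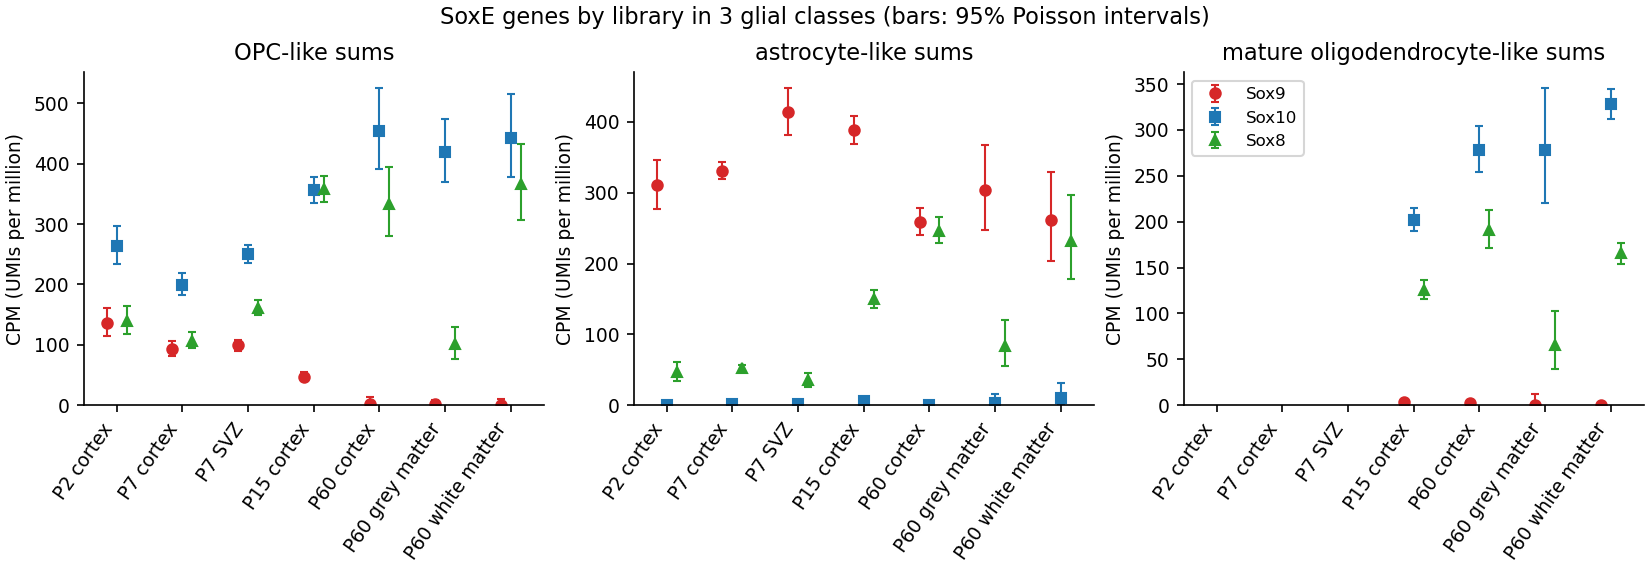
CPM of Sox9, Sox10 and Sox8 (y axis) in each library (x axis) for OPC-like, astrocyte-like and mature oligodendrocyte-like sums, with 95% exact Poisson intervals as bars; sums of under 20 cells are not drawn. In OPC-like sums Sox9 is at 2.47 CPM or less in the P60 libraries and at 47.0 CPM or more in the others, while Sox8 in P60 grey matter is below the other P60 libraries in each class.

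In P60 grey matter Sox8 was lower than in P60 cortex in all 3 glial classes measured, while the Sox10 ratios had intervals that included 1. The ratio of P60 grey matter to P60 cortex for Sox8 was 0.303 (95% exact interval 0.220 to 0.413) in OPC-like, 0.340 (0.226 to 0.492) in astrocyte-like and 0.346 (0.205 to 0.548) in mature oligodendrocyte-like sums. White matter of the same age stood at 3.62 (2.66 to 4.98), 2.77 (1.76 to 4.46) and 2.51 (1.60 to 4.19) times grey matter in the same order of classes. For Sox10 the ratio of P60 grey matter to P60 cortex was 0.922 (0.759 to 1.12) in OPC-like and 0.997 (0.777 to 1.27) in mature oligodendrocyte-like sums. Each region is 1 library, so region and library cannot be told apart. The 8 microglia markers, with 0, 0 and 4 of them at 0, summed to 1217 CPM in the P60 grey matter OPC-like sum, 274 CPM in P60 cortex and 93.4 CPM in P60 white matter, and their part in the result was not tested.

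Sox9 was highest in neural precursor-like cells, with 500.3, 475, 529 and 432 CPM in P2 cortex, P7 cortex, P7 SVZ and P15 cortex. The one ependymal-like sum with enough cells, in P7 cortex, had 442 CPM. Astrocyte-like cells stood at 259, 303 and 261 CPM in P60 cortex, P60 grey matter and P60 white matter and 310.4, 331, 413 and 388 CPM in the early libraries in the same order. The lowest neural precursor value lay above the highest astrocyte value, and the ependymal value lay within the neural precursor range. Neuroblast-like cells (48.9 to 148 CPM in 6 libraries), excitatory intermediate precursor-like cells (61.1 to 139 CPM in 4) and early OPC-like cells (47.0 to 136 CPM) formed a middle group whose ranges overlapped with each other and with striatal neuron-like cells (46.4 to 79.4 CPM in 2). Of 919 excitatory intermediate precursor-like cells, 315 lay in a cluster led by mitosis genes such as Cdc20, with 3 class markers raised. Neuroblast-like cells also included clusters led by replication or histone genes. The part of cycling cells in these Sox9 levels was not tested. Endothelial-like cells had 47.3 CPM in P7 cortex and 8.52 to 15.2 CPM in 4 other libraries. Border-associated macrophage-like cells of P7 cortex had 66.6 CPM and those of P60 grey matter and P15 cortex 0 and 7.24 CPM. Microglia-like cells gave at most 5.67 CPM.

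Neural precursor-like cells of P7 SVZ held 2 main clusters that differed in Sox9. The cluster led by Igfbp5 and Gfap, a filament gene of astrocytes and of quiescent stem cells, had 710 CPM (95% Poisson interval 683 to 738, 530 cells). The cluster led by Hes5 and Egfr, genes of activated progenitors, had 249 CPM (229.9 to 269.8, 302 cells). Sox8 had the reverse order, with 27.7 CPM in the first and 98.5 CPM in the second. Sox10 was at 2.20 and 6.95 CPM. Both clusters come from 1 library, so these values carry counting error only.

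Sox10 was counted above 100 CPM in the 4 classes of the oligodendrocyte lineage and in no other class with a sum. It reached 10.9 CPM at most in astrocyte-like sums, 4.06 CPM in neural precursor-like sums, 3.14 CPM in microglia-like sums and 16.1 CPM in any other class. Sox8 was counted in both glial branches and, at lower levels than in OPC-like cells, in neuronal classes. Its astrocyte-like level was 247, 83.8 and 232 CPM in P60 cortex, P60 grey matter and P60 white matter, and 46.7, 52.2, 35.0 and 149.8 CPM in P2 cortex, P7 cortex, P7 SVZ and P15 cortex. Neural precursor-like cells had 22.4 to 55.7 CPM of Sox8. Neuronal classes reached up to 62.8 (neuroblast-like), 64.7 (excitatory intermediate precursor-like), 59.6 (excitatory neuron-like) and 60.9 CPM (striatal neuron-like), above the P2 and P7 astrocyte-like values, and microglia-like cells had at most 4.93 CPM.

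**Figure D2:**
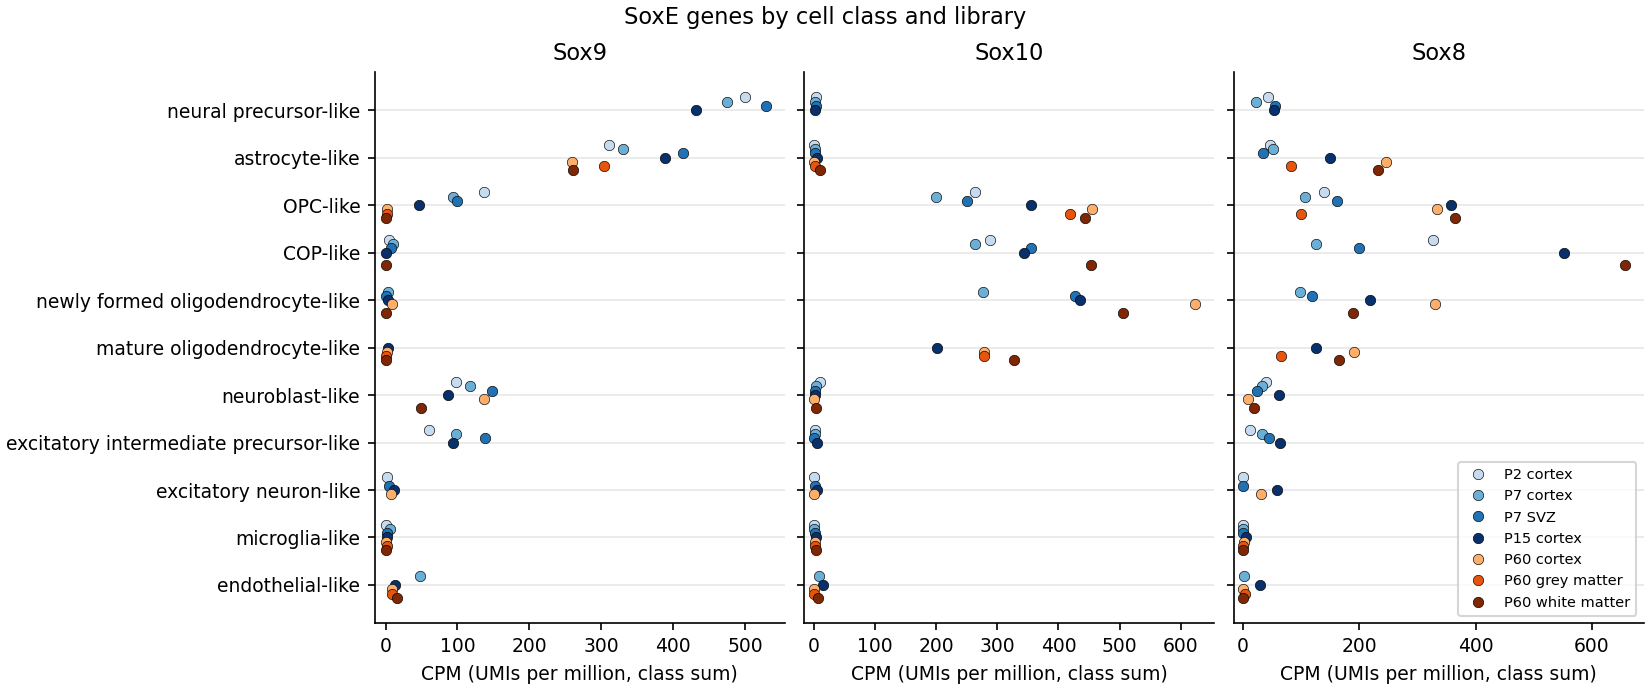
CPM (x axis) of Sox9, Sox10 and Sox8 in 11 cell classes (rows), with 1 point per library that had at least 20 cells of the class. Sox9 points lie at 259 CPM or more in neural precursor-like and astrocyte-like rows, and Sox10 points above 100 CPM lie only in the 4 oligodendrocyte lineage rows.

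Along the oligodendrocyte lineage Sox9 was near 0 from the first step away from the precursor. In committed precursors (COP-like, marked by Gpr17 and Bcas1) Sox9 was at 0 CPM in P60 white matter and at 4.30, 10.2, 7.30 and 0 CPM in P2 cortex, P7 cortex, P7 SVZ and P15 cortex. Those values rest on 0 UMIs and on 1, 14, 12 and 0 UMIs. Newly formed oligodendrocyte-like cells had 9.45 and 0 CPM in P60 cortex and P60 white matter, and 3.84, 0 and 2.71 CPM in P7 cortex, P7 SVZ and P15 cortex. Mature oligodendrocyte-like cells had at most 3.16 CPM in 4 libraries. In each early library the COP-like value was lower than the OPC-like value.

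Sox10 was counted at every step and was lower in mature cells than in newly formed ones. COP-like sums had 454 CPM in P60 white matter and 288, 263, 356 and 344 CPM in the early libraries. Newly formed oligodendrocyte-like sums had 623 and 506 CPM in P60 cortex and P60 white matter, against 277, 428 and 435 CPM in P7 cortex, P7 SVZ and P15 cortex. Mature oligodendrocyte-like sums had 278, 278 and 328 CPM in P60 cortex, P60 grey matter and P60 white matter and 202 CPM in P15 cortex. In P60 cortex, P60 white matter and P15 cortex, which held both classes, the mature value was below the newly formed one.

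Within the lineage Sox8 was highest in COP-like cells in each of the 5 libraries with such a sum. It stood there at 656 CPM in P60 white matter and at 327, 127, 199 and 552 CPM in P2 cortex, P7 cortex, P7 SVZ and P15 cortex, above the OPC-like value of each library. Mature oligodendrocyte-like cells had 191, 66.0 and 165 CPM in P60 cortex, P60 grey matter and P60 white matter and 126 CPM in P15 cortex. The classes come from clusters of the same cells, so differences between them are given without a test.

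**Figure D3:**
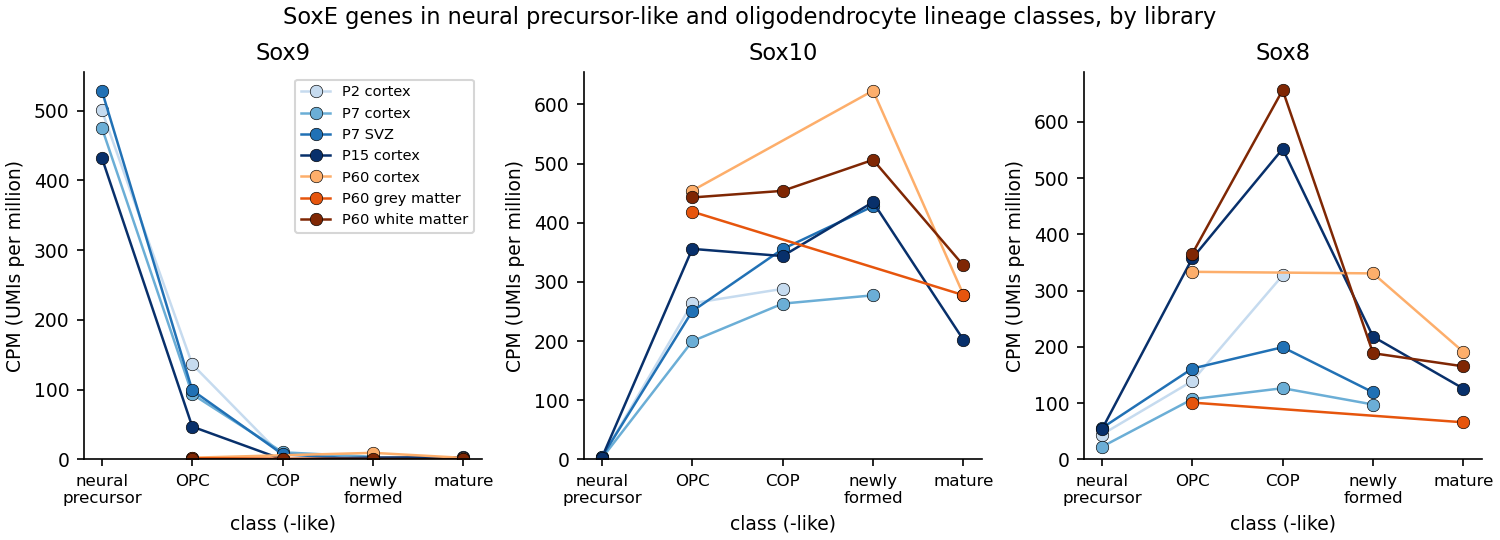
CPM (y axis) of each SoxE gene in neural precursor-like cells and the 4 classes of the oligodendrocyte lineage (x axis), with 1 line per library; a line passes over classes with under 20 cells. Sox9 is at 10.2 CPM or less from COP-like cells on, and Sox8 peaks in COP-like cells at 127 to 656 CPM.

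In newly formed oligodendrocyte-like sums the adult against early comparison (2 and 3 libraries) called 0% of 6247 genes (edgeR quasi-likelihood, Benjamini-Hochberg), and values did not overlap for 36.7%. There 771 genes had an unadjusted p under 0.05, and DESeq2 called 38. Sox10 had a log2 fold change of 0.47 ± 0.30 (SE, adjusted p = 0.536) and Sox8 of 0.72 ± 0.40 (adjusted p = 0.484), so neither passed. Adult values of Sox10 lay above all early ones, while those of Sox8 (331 and 189 CPM in P60 cortex and P60 white matter, against 97.6, 119 and 218 CPM in P7 cortex, P7 SVZ and P15 cortex) overlapped. Of the lists given with the other classes, 0 of 12 partners (median log2 fold change 0.30), 0 of 9 Sox10 targets (-0.41), 0 of 4 gliogenesis genes (0.46) and 0 of 5 cartilage genes (0.62) passed, against a median of -0.02 for all genes.

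In astrocyte-like cells neither Sox9 nor Sox8 passed the test between ages, and Sox10 was too low to be tested. Different clusters held most of the class: one held 94.5%, 74.0% and 94.2% of it in P60 cortex, P60 grey matter and P60 white matter, and 7.26% in P15 cortex, while others held 97.3% in P2 cortex, 79.9% in P7 cortex, 97.3% in P7 SVZ and 89.9% in P15 cortex. In that comparison 0.546% of 9896 genes were called (0.323% higher and 0.222% lower in adult sums), and values did not overlap for 25.6%. Sox9 averaged 275 ± 24.9 CPM in adult and 361 ± 48.2 CPM in early postnatal sums (SD, n = 3 and 4). All adult values lay below all early ones, but the log2 fold change of -0.41 ± 0.28 (SE) had an adjusted p of 0.361 by edgeR. Sox8 averaged 187 ± 90.1 CPM in adult and 70.9 ± 53.1 CPM in early sums, with a log2 fold change of 1.39 ± 0.52 (adjusted p = 0.126). Here P15 cortex lay with the adult libraries and P60 grey matter nearer to the early ones, so the groups overlapped. Without P15 cortex, Sox8 passed (log2 fold change 2.07, adjusted p = 0.00142 by edgeR), and 2585 genes were called in place of 54.

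Of 15 partners and modulators of the SoxE factors tested between ages in OPC-like cells, 0 rose and 1 fell, a share near the 6.48% called over all genes, with a median log2 fold change of 0.09 against 0.01 for all genes tested. The one that fell was Hes5, a repressor induced by Notch, at 375, 157 and 267 CPM in P60 cortex, P60 grey matter and P60 white matter, against 1155, 462, 801 and 557 CPM in the early libraries. The groups did not overlap, and its log2 fold change was -1.71 ± 0.38 (SE, edgeR adjusted p = 0.0215). The call was lost when P2 cortex, P60 grey matter or P60 white matter was left out, with adjusted p up to 0.12. Olig1 (0.45 ± 0.34, adjusted p = 0.466) and Olig2 (0.24 ± 0.31, adjusted p = 0.711), which specify the lineage with Sox10, did not pass.

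Of 10 tested genes that Sox10 is known to activate, 0 rose and 0 fell between ages in OPC-like cells, with a median log2 fold change of 0.40. At 6.48% called over all genes, a count of 0 in a list of this size says little. Pdgfra had 0.43 ± 0.23 (adjusted p = 0.29) and the myelin sheath enzyme gene Cnp 0.02 ± 0.29 (adjusted p = 0.977, both edgeR). Of 7 genes linked to Sox9 in gliogenesis, 0 rose and 0 fell (median 0.37). There Nfia, a factor that acts with Sox9 in early gliogenesis, had 0.17 ± 0.21 (adjusted p = 0.685) and Nfib 0.04 ± 0.19 (adjusted p = 0.93).

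Among 8 tested genes that Sox9 is known to drive in cartilage, 1 rose and 1 fell in adult OPC-like cells (median -0.07), beside 2.95% of all genes that rose and 3.53% that fell. Hapln1, a link protein of the hyaluronan matrix, stood at 88.9, 87.7 and 69.4 CPM in P60 cortex, P60 grey matter and P60 white matter, against 0, 3.28, 1.10 and 16.3 CPM in the early libraries. It rose by 3.70 ± 0.67 on the log2 scale (edgeR adjusted p = 0.0101) and did not pass without P60 grey matter (adjusted p = 0.078). Col9a3, a collagen IX chain, stood at 69.1, 121 and 93.4 CPM against 206, 174, 171 and 195 CPM in the same orders of libraries. It fell by 1.16 ± 0.24 on the log2 scale (adjusted p = 0.0168), a call lost without any one of the 3 adult libraries. Sox6 (0.09 ± 0.23, adjusted p = 0.871) and Sox5 (-0.22 ± 0.27, adjusted p = 0.683), SoxD partners of Sox9 in cartilage, did not pass.

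In astrocyte-like cells these lists had 1 call between ages, where 0.546% of all genes were called. Partners and modulators gave 0 higher and 0 lower of 14 (median -0.31), Sox10 targets 0 and 0 of 4 (median 0.67), gliogenesis genes 0 and 0 of 8 (median -0.19) and cartilage genes 0 and 1 of 7 (median -0.02), beside a median of -0.01 for all genes. The call was Col9a1, another collagen IX chain, at 1.07, 0 and 0 CPM in P60 cortex, P60 grey matter and P60 white matter, against 18.1, 34.9, 16.5 and 9.33 CPM in the early libraries (edgeR adjusted p = 0.048). It was lost under 8 of 13 other settings, which gave adjusted p values up to 0.244. Hes5 was again lower in every adult sum (289.8 against 1109 CPM on average, log2 fold change -1.95 ± 0.39) and just missed the threshold (adjusted p = 0.0532). Slc1a3, the glial glutamate transporter, had a log2 fold change of 0.14 ± 0.33 (adjusted p = 0.825).

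Between cycling and non-cycling precursors Sox9 and Sox10 did not pass the test, while Sox8 was called lower in cycling ones. With 24.6% of all genes called, that call alone says little, and it depended on libraries and settings. Cells were called cycling with at least 3 UMIs of 12 core cell cycle genes after thinning and non-cycling without any. Cells between these were left out, and the call was changed after the data were seen. Cycling sums of at least 15 cells came from the 4 early libraries, which were then compared within each library. The 94 genes of the planned cell cycle list were left out of the test, while others of the cycle, such as Pclaf and Prc1, stayed in and were called. Sox9 stood at 101, 117, 80.6 and 53.6 CPM in cycling cells of P2 cortex, P7 cortex, P7 SVZ and P15 cortex, against 144, 83.2, 102 and 46.2 CPM in non-cycling cells. It was higher in cycling cells in 2 of 4 libraries, and the log2 fold change was 0.02 ± 0.14 (SE, edgeR adjusted p = 0.951). Sox8 stood at 86.0, 119, 142 and 226 CPM in cycling cells, against 149, 106, 175 and 391 CPM in non-cycling cells of the same libraries. It was lower in cycling cells in 3 of 4 libraries, with a log2 fold change of -0.36 ± 0.12 (edgeR adjusted p = 0.0177), beside 24.6% of 8711 genes called in this comparison (13.4% higher and 11.2% lower). The Sox8 call was lost without P15 cortex (adjusted p = 0.37), without P7 SVZ (0.0517), with DESeq2 (0.244) and without the library as a replicate block (0.642). Sox10 stood at 213, 178, 224 and 291 CPM in cycling cells against 275, 206, 263 and 377 CPM in non-cycling cells. It was lower in cycling cells of all 4 libraries but did not pass (log2 fold change -0.23 ± 0.10, adjusted p = 0.0814). With library totals in place of TMM its adjusted p was 0.0245.

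**Figure D4:**
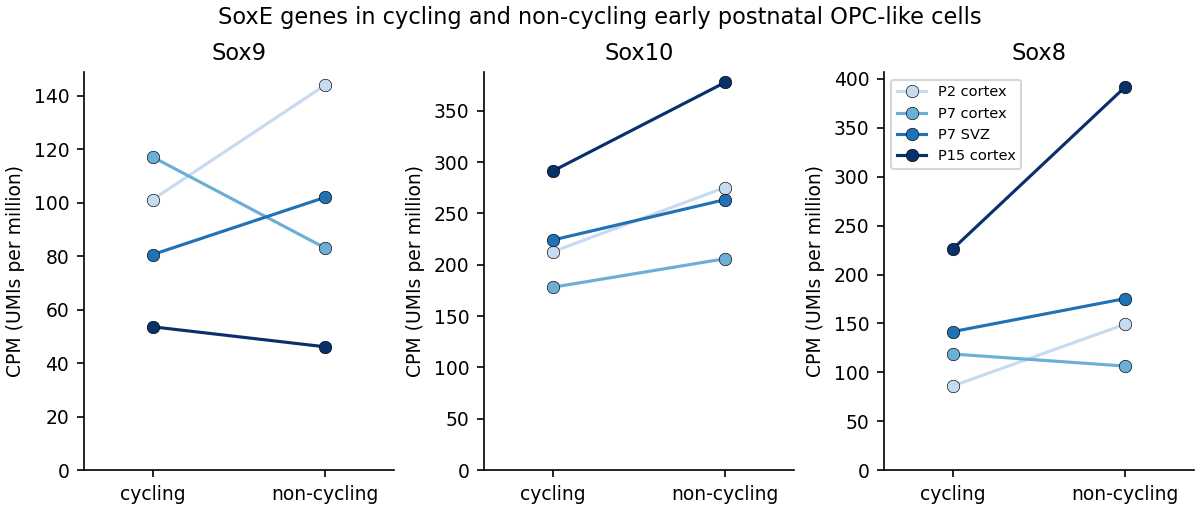
CPM (y axis) of each SoxE gene in cycling (left) and non-cycling (right) OPC-like cells, joined by library for the 4 early postnatal libraries. Sox10 lines all run upward to non-cycling cells, Sox8 lines do so in 3 of 4 libraries and Sox9 lines in 2 of 4.

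Partners of the SoxE genes went both ways with the cell cycle. Of 14 partners and modulators tested, 4 rose and 4 fell in cycling cells (median log2 fold change -0.13, against -0.02 for all genes). Over all genes tested 13.4% rose and 11.2% fell, so the few calls among Sox10 targets and cartilage genes below say little. Nfib rose by 0.47 ± 0.10 (adjusted p = 0.000238), while Olig1 fell by 0.48 ± 0.10 (adjusted p = 0.000131), Hes5 by 0.50 ± 0.10 (adjusted p = 0.000158) and Hes1 by 0.69 ± 0.15 (adjusted p = 0.000306). Olig2 (-0.24 ± 0.10, adjusted p = 0.0659) and Sox6 (-0.12 ± 0.10, adjusted p = 0.432) did not pass. Of 7 Sox10 targets, 0 rose and 2 fell (median -0.21): Dusp15, a phosphatase of the lineage, by 1.74 ± 0.23 (adjusted p = 9.77e-09) and Gjb1, connexin 32, by 1.14 ± 0.34 (adjusted p = 0.0103). Of 6 gliogenesis genes, 2 rose (Nfia and Nfib) and 2 fell (median -0.10), namely Mmd2 by 0.73 ± 0.12 (adjusted p = 2.8e-06) and Slc1a3 by 0.58 ± 0.11 (adjusted p = 7.46e-05). Of 5 cartilage genes, 0 rose and 1 fell (median -0.33), which was Sox5 at -0.45 ± 0.13 (adjusted p = 0.00674, edgeR as for all of these). Gjb1 lost its call with DESeq2 and without P7 SVZ, Nfia with DESeq2, without the low-count filter and without P15 cortex, and Sox5 with DESeq2. With no replicate block Dusp15 kept its call and the other 9 named here lost theirs.

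Early precursors with and without a Sox9 UMI were then compared within each library, a split chosen after the data were seen. The cells were thinned to 2000 UMIs, which gave 39, 58, 95 and 48 cells with Sox9 detected in P2 cortex, P7 cortex, P7 SVZ and P15 cortex, against 116, 246, 444 and 422 cells without. A cell without a UMI may still express the gene, and Sox9 itself was left out of the test. Sox10 stood at 333, 189.7, 200 and 365 CPM in cells with Sox9 detected, against 241, 179, 257 and 382 CPM in the others. Sox8 stood at 141, 121, 189 and 375 CPM in cells with Sox9 detected, against 151, 116, 186 and 411 CPM in the others. Both were higher in 2 of 4 libraries, with log2 fold changes of -0.11 ± 0.15 (adjusted p = 0.857) and -0.10 ± 0.16 (adjusted p = 0.887) by edgeR. Read as cells, Sox9 was found in 31.3%, 21.3%, 14.2% and 10.4% of cells with a Sox10 UMI, against 20.5%, 18.1%, 19.7% and 9.95% of cells without one.

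Other genes did differ with Sox9: 46 were higher and 98 lower in cells with Sox9 detected, 3.75% of the 3838 genes tested (1.2% higher and 2.55% lower). Values of the groups did not overlap for 1.98%. Hes1, which Notch induces, rose in all 4 libraries, to 449, 207, 94.7 and 250.0 CPM in cells with Sox9 detected, against 90.5, 54.9, 49.5 and 153 CPM in the others. Its log2 fold change was 1.29 ± 0.20 (SE, edgeR adjusted p = 2.46e-05), and the call held without any one of the 4 libraries. Nrarp, a feedback regulator of Notch, stood at 385, 267, 89.5 and 333 CPM against 112, 108, 39.4 and 185 CPM. It rose by 1.14 ± 0.18 (adjusted p = 2.61e-05), also in 4 of 4 libraries. Hes5 was higher in 4 of 4 libraries too but did not pass (0.36 ± 0.13, adjusted p = 0.123).

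Of the gene lists, 1 of 13 partners (Hes1) rose and 0 fell (median log2 fold change 0.02, against 0.00 for all genes, where Olig1 at 0.02 ± 0.11 had an adjusted p of 0.975). Over all genes tested 1.2% rose and 2.55% fell. Of 4 Sox10 targets, 1 rose, Pdgfra, at 1026, 1284, 968 and 1344 CPM in cells with Sox9 detected, against 612, 803, 762 and 1174 CPM in the others (log2 fold change 0.39 ± 0.12, edgeR adjusted p = 0.0333). Pdgfra is also 1 of the 10 markers of the OPC-like class, and the others of that list are not reported here. Of 6 gliogenesis genes, 2 rose, Pdgfra again and Slc1a3 (0.53 ± 0.15, adjusted p = 0.0215). None of 4 cartilage genes passed, with Sox6 at -0.26 ± 0.16 (adjusted p = 0.55). Leaving out P2 cortex or P7 cortex ended the calls of both Pdgfra and Slc1a3, leaving out P7 SVZ ended that of Pdgfra, and DESeq2 did not call Slc1a3.

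Nrarp and the following genes were named after their values were seen. Higher with Sox9 were Emid1, an extracellular matrix gene (log2 fold change 0.82 ± 0.13, adjusted p = 3.49e-05), Sparcl1, a secreted matrix protein gene of astrocytes (0.93 ± 0.16, adjusted p = 6.16e-05), and the lipoprotein gene Apoe (0.68 ± 0.12, adjusted p = 0.000108). Lower were Bcas1 (-0.76 ± 0.18, adjusted p = 0.00381) and Bmp4 (-1.41 ± 0.39, adjusted p = 0.0195). Both are among the 8 markers of the COP-like class, and the others of that list are not reported here. Bmp4 stood at 0, 34.5, 5.26 and 72.9 CPM with Sox9 detected in P2 cortex, P7 cortex, P7 SVZ and P15 cortex. Without it the values were 25.9, 73.2, 52.9 and 110 CPM. Bcas1 stood at 64.1, 164, 126 and 260.4 CPM in cells with Sox9 detected, against 224, 250.0, 236 and 294 CPM in the others. Nfix (-0.91 ± 0.17, adjusted p = 0.000252), Gap43 (-0.79 ± 0.14, adjusted p = 0.000122) and Tmsb4x, an actin-binding peptide gene (-0.83 ± 0.11, adjusted p = 5.7e-07), were lower in 4 of 4 libraries, all by edgeR. Genes of ribosomal proteins made up 65 of the 98 lower genes and 0 of the 46 higher ones, out of 84 tested. With no replicate block 0 genes were called. Leaving out P7 cortex reduced the calls to 13, and then Bcas1 and Bmp4 no longer passed, nor did they without P7 SVZ.

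Other measures moved with the split. Before thinning, cells with Sox9 detected held a median of 4985, 6875, 7272 and 5029.5 UMIs in P2 cortex, P7 cortex, P7 SVZ and P15 cortex, against 7245.5, 7842.5, 8170.5 and 5720.0 UMIs in the others. The 14 astrocyte markers, of which Slc1a3 is one, summed to 1090, 1526, 816 and 1437.5 CPM in cells with Sox9 detected, against 547, 900.4, 599 and 1373 CPM in the others. Cycling cells made up 10.3%, 20.7%, 14.7% and 18.8% of cells with Sox9 detected, against 13.8%, 18.7%, 19.1% and 9.72% of the others. The part of these measures in the result was not tested.

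**Figure D5:**
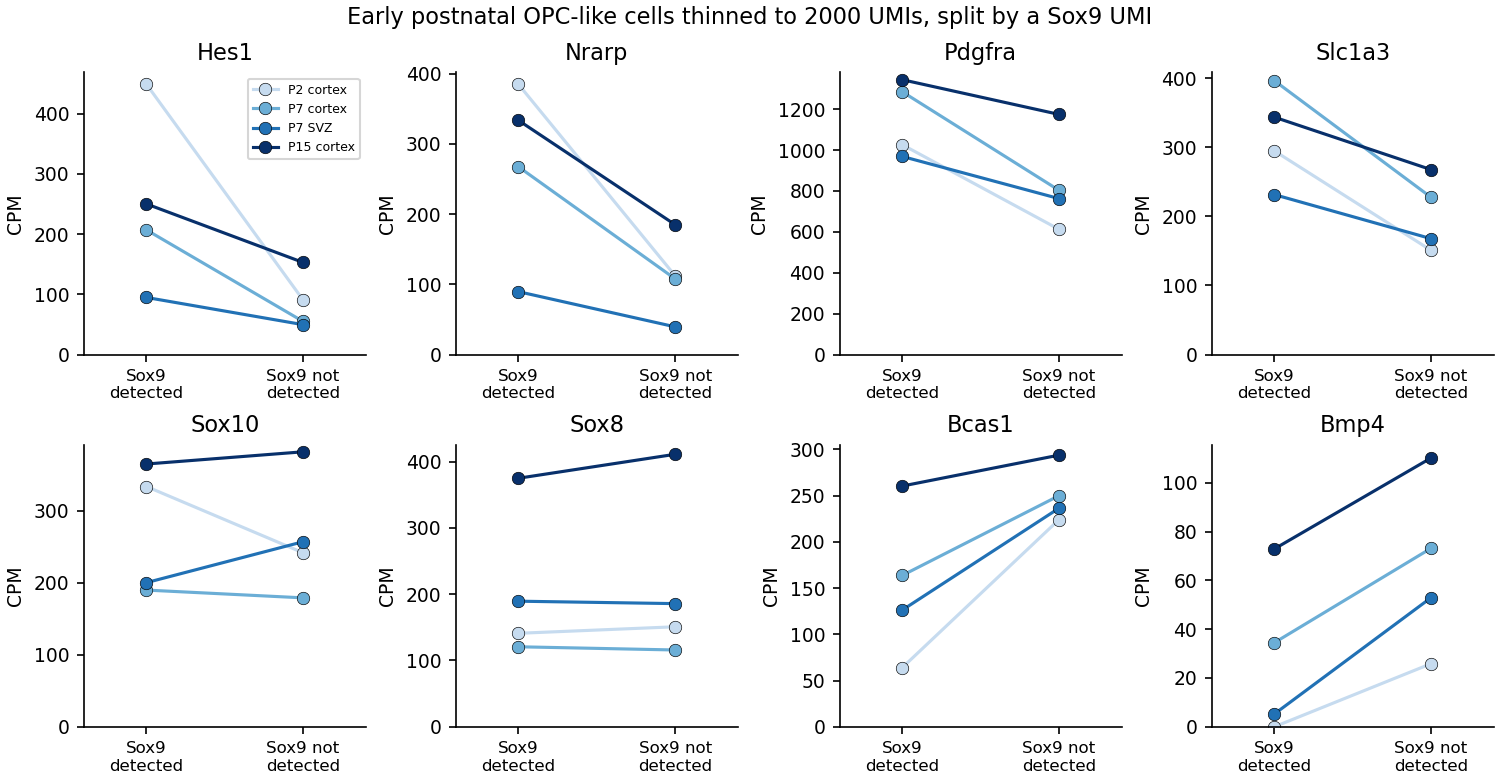
CPM (y axis) of 8 genes in early postnatal OPC-like cells thinned to 2000 UMIs, with Sox9 detected (left) or not detected (right), joined by library. Hes1, Nrarp, Pdgfra and Slc1a3 are higher on the left in 4 of 4 libraries, Bcas1 and Bmp4 lower in 4 of 4, and Sox10 and Sox8 higher in 2 of 4.

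The genes whose levels ran most like each SoxE gene were found over 70 sums of 16 classes, among 7359 genes with a mean of at least 20 CPM. These sums share libraries and depth, so the Pearson correlations of log2(CPM + 1) are descriptions only. For Sox9 they were Mlc1 (r = 0.84, itself one of the astrocyte markers used for naming), Rfx4 (0.82), Id4 (0.82), Pou3f4 (0.81) and Tpbg (0.80). For Sox10 they were Gal3st1 (0.93), Bcas1 (0.91, a COP marker), Prkcq (0.89), Fa2h (0.89) and Enpp2 (0.88). For Sox8 they included Olig2 and Olig1 (0.83 each), Col9a3 (0.83) and Shisa4 (0.82). Among the members, Sox8 and Sox10 had r = 0.69, Sox8 and Sox9 0.17, and Sox9 and Sox10 -0.33.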

How the data were processed

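Brain tissue was dissociated and single-cell libraries of transcript 3′ ends were made on the 10x platform (per the labels). The deposited matrices give raw counts of UMIs for each barcode. Per the file headers the authors' software was Cell Ranger 3.0.2, and mm10 stands in the submitters' processing notes. The annotation release is not given in the sources used here. The SoxE genes and the gene lists were chosen with earlier results of these data known.

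Barcodes needed 500 genes and at most 10% mitochondrial UMIs, and scrublet doublet calls (expected rate 0.06) were dropped. This kept 20697 cells, with median depths of 2791 to 9530.5 UMIs per library. Cells were scaled to 10000 UMIs and clustered (scanpy 1.11.5, 2000 variable genes, 30 principal components, 15 neighbours, Leiden resolution 1.5) into 48 clusters. A class name required 3 of its markers at 2-fold or more over other cells. Among classes within 0.25 of the best marker share, the one with most markers among the leading genes was taken, a rule added after seeing the data. It left 5 clusters (680 cells) unnamed. Counts were summed per class and library with at least 20 cells (15 for the cycling and Sox9 splits).

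Sums were tested with edgeR 4.0.16 (R 4.3.3; quasi-likelihood, TMM, low-count filter, Benjamini-Hochberg adjusted p under 0.05), and DESeq2 1.42.0 was an alternative. The SE beside an edgeR fold change is the absolute log2 fold change divided by the square root of the F statistic. Ages were compared over libraries. The cycling and Sox9 splits had the library as a block, because both arms come from the same library. The tests were also run on counts simulated without differences of library, region or strain, so that run cannot speak to such differences. Intervals (95%) are exact Poisson, exact binomial or, for ratios, conditional binomial, and cover counting error only. Genes named from a list were up to 4 called genes with the smallest adjusted p and up to 2 of the most abundant others; exceptions are stated. One of the genes most like Sox8 is not reported here. The planned cycling call over 94 genes left under 15 non-cycling cells in 6 of 7 libraries, so 12 core genes were used. The planned COP-like age contrast had 1 adult sum and was replaced by newly formed oligodendrocyte-like sums. Of 31053 gene rows, 30934 matched GENCODE M21, whose positions and sequences were used. Python 3.11.15, numpy 2.4.6, scipy 1.17.1 and matplotlib 3.10.9 were used.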

Additional observations from a re-analysis of the deposited data

Results flagged for a closer look

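Sox8 in the astrocyte-like sum of P15 cortex stood apart from the other early postnatal libraries. It was at 149.8 CPM, against 35.0 to 52.2 CPM in P2 cortex, P7 cortex and P7 SVZ, and the gap to the nearest library was 0.85 of the whole range of the 4 values. It was 1 of 21 groups of 4 or more sums looked at, and chance alone marks about 1 in 20 where sums are otherwise alike. The early libraries differ in age, P15 cortex being the oldest, and the groups share libraries, so that rate is only a guide.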

How the results depend on the processing

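Counts of called genes depended on the libraries. In OPC-like sums 633 genes were called between ages, 1227 without the low-count filter and 277 in non-cycling cells. Leaving out 1 library gave 11 (P60 grey matter), 157 (P60 cortex), 239 (P2 cortex), 246 (P60 white matter), 267 (P7 cortex) and at most 1190 (P15 cortex) calls. The count without P7 SVZ lay within this range and is not reported here. Library totals in place of TMM moved the median of all genes by 0.20 and gave 455 higher and 244 lower genes, beside 288 and 345. In astrocyte-like sums 54 genes were called, 987 with DESeq2, 843 without the filter, 2 at 5% mitochondrial UMIs, 29 in cells of 2000 UMIs or more, and 0, 0, 0, 1, 4, 10 or 2585 with 1 library left out, the last without P15 cortex. In newly formed oligodendrocyte-like sums the count was 0, then 38 with DESeq2, 244 without the filter, 13 at 5% mitochondrial UMIs and 0 to 1 with 1 library left out. Cycling gave 2143 calls, 976 with DESeq2 and 436 with no replicate block. The Sox9 split gave 144 calls, 0 with no replicate block (edgeR), 107 with DESeq2 and 13 to 147 with 1 library left out.

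The sign of Sox9 in cycling cells (0.02, not called) turned with library totals (-0.030), without the filter (-0.011), with no replicate block (-0.059), without P7 cortex (-0.18) and without P15 cortex (-0.042). Sox10 in the Sox9 split (-0.11, not called) turned without P7 SVZ (0.036). Adult minus early postnatal shares of OPC-like cells with a UMI were -17.7 points for Sox9, -34.8 unthinned and -9.08 at 1000 UMIs. For Sox10 and Sox8 they were 14.4 and 4.12 points, and reversed unthinned to -5.14 and -5.59, where adult cells are shallower. Spearman correlation kept 3 of the 5 most similar genes of each SoxE gene. Allowing SoxE genes among the clustering genes changed no count of calls, since 0 of them were variable enough. Asking for 50 cells per sum removes sums and changes no level. The cause of the other changes was not tested.

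The planned COP-like tests, the cycling call at 5 UMIs and the stage test on non-cycling cells of the full list were not run, for lack of cells. No paired analysis was possible because replicate numbers of the stage groups only name libraries; the cycling and Sox9 splits are paired by library. Few adult precursors (318 cells) limit what the adult SoxE levels can show.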
